A study of Homo sapiens with 32 samples.

Results

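Transcripts of 9 keratin genes, KRT5, KRT7, KRT8, KRT14, KRT15, KRT16, KRT17, KRT18 and KRT19, were followed in U2OS cells, a line derived from an osteosarcoma. They were taken by name from the deposited expression matrix, where they were 9 of 35587 genes. U2OS cells were edited with CRISPR-Cas9, and poly-A RNA was sequenced in 32 libraries. The 4 genotypes were homozygous for the p53 change A347D (HOM, A347D/A347D), heterozygous for it (HET, WT/A347D), without p53 (KO), or unedited (WT, WT/WT). Cells of each genotype received 20 µM etoposide, which traps topoisomerase II on DNA, or the solvent DMSO for 24 h, with 4 libraries in each of the 8 groups. The libraries of a group came from separate plates, and the number of edited lines behind a genotype is not given in the sources used here. P-values therefore measure the spread between plates, and a genotype cannot be told apart from the line that carries it.

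Keratins build intermediate filaments from pairs of a type I and a type II chain, and each kind of epithelium uses its own pairs. KRT8 and KRT18 are the pair of simple epithelia and are joined there by KRT7 and KRT19, KRT5 and KRT14 are the pair of basal keratinocytes with KRT15 as a further basal chain, and KRT16 and KRT17 are known for their induction in wounded or stressed skin. Bone-derived cells rely on vimentin, another intermediate filament protein, and keratins are usually thought of as epithelial proteins.

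The type II members KRT5, KRT7 and KRT8 lie on chromosome 12 and the type I members KRT14, KRT15, KRT16, KRT17 and KRT19 on chromosome 17 (GRCh38, GENCODE annotation). KRT18 is a type I gene on chromosome 12, and its span overlaps that of KRT8 on the opposite strand. KRT7 overlaps KRT86 on its own strand and KRT7-AS on the other. The strand used in counting is not given in the sources used here, so reads from such overlaps cannot be told apart. The coding stretch below is shown because KRT14 and KRT16 are identical over all of it, which bears on how their reads can be separated. Capitals mark bases that differ from KRT14 in the aligned window, which lies within 1 exon of each gene.
KRT14 (chr17:41586406-41586525, minus strand): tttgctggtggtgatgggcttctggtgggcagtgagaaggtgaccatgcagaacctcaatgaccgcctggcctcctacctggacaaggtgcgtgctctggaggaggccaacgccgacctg
KRT16 (chr17:41612254-41612373, minus strand): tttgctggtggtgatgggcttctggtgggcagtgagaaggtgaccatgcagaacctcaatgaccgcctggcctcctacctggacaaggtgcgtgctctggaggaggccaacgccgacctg
KRT17 (chr17:41624174-41624293, minus strand): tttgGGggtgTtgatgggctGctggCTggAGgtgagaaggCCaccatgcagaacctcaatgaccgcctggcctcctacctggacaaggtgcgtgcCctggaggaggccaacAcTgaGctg
KRT18 (chr12:52949378-52949497, plus strand): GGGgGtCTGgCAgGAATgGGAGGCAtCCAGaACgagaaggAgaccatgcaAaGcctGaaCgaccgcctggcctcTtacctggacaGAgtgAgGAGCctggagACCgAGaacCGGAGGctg
KRT16 differed from KRT14 at 0 of these 120 bases, KRT17 at 14 and KRT18 at 50. The longest identical coding run was 158 bases between KRT14 and KRT16 and 59 bases between KRT14 and KRT17. Of all 31-base stretches in the annotated KRT14 transcripts, 12.9% also occur in KRT16, and 33.0% occur in some other gene. For KRT16 these shares were 12% for KRT14 and 31.8% for any other gene, so its counts are uncertain wherever KRT14 is abundant. The 3 most abundant members share such stretches mainly with their own pseudogenes: 28.1% for KRT18, 22.5% for KRT17 and 18.9% for KRT8. The share was 6.42% for KRT19, 4.04% for KRT5, 3.61% for KRT15 and 2.0% for KRT7.

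Library depth, recovered from the matrix, ran from 18.3 to 24.2 M counts, with 1 shallower library of 8.05 M among HET cells with etoposide. Of 15 bone and mesenchymal marker genes measured, 12 to 14 averaged at least 10 normalized counts in each group, and COL1A1 averaged 42007 over all libraries. Of 13 epithelial markers, a list that itself holds KRT8, KRT18 and KRT19, 4 to 8 reached that level, and KRT8 and KRT18 were among them in each group. The tight junction gene CLDN4 averaged 790.2 normalized counts over all libraries, EPCAM 53.9 and CDH1 (E-cadherin) 21.8. In bulk RNA, fewer cells of a type and less RNA per cell cannot be told apart. HOM libraries 2 to 4 with DMSO stood apart: their normalized counts summed to 32 to 47.3 M, against 16.2 to 24.7 M elsewhere, and 20.7% to 21.9% of their counts came from mitochondrial DNA, against 7.87% to 15.2% elsewhere. The etoposide responses of HOM cells, and the members' HOM differences in DMSO, are therefore also given without those 3 libraries, which leaves library 1 alone and assumes that it varies like the other groups.

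KRT17, KRT18 and KRT8 carried most of the signal of the 9 genes, and the other members were present at far lower levels. Divided by the longest annotated transcript, mean levels over the 32 libraries were 8220 normalized counts per kb for KRT17, 4182 for KRT18 and 2027 for KRT8. KRT14 averaged 441 per kb, KRT7 64.4, KRT16 33.6, KRT5 8.63, KRT15 3.68 and KRT19 2.82. Among all keratins in the matrix KRT17, KRT18 and KRT8 ranked 1, 3 and 4 on this scale, and KRT81, a hair keratin, ranked 2 with 4828 per kb. With the median length of protein-coding transcripts in place of the longest, KRT18 (5590 per kb) and KRT81 (5424) exchanged ranks, and KRT17 stayed first at 14122. On that length KRT5 was 36.5 per kb, or 4.22 times its level above, KRT16 60.8, KRT7 105, KRT8 3439 and KRT14 still 441. Levels per kb are thus uncertain by such factors, while changes between groups do not depend on the length. The 9 genes supplied 52.1% of all keratin signal per kb in HOM cells with etoposide and 70.3% with DMSO. The share was 54.8% and 81.8% in HET cells, 51.5% and 71.8% in KO cells, and 69.0% and 76.0% in WT cells. In each genotype the etoposide share was the lower one. KRT17, KRT18 and KRT8 together made up 48.4% to 49.6% of all keratin signal per kb in the KO libraries with etoposide, and over 50% in every other library.

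**Figure D1:**
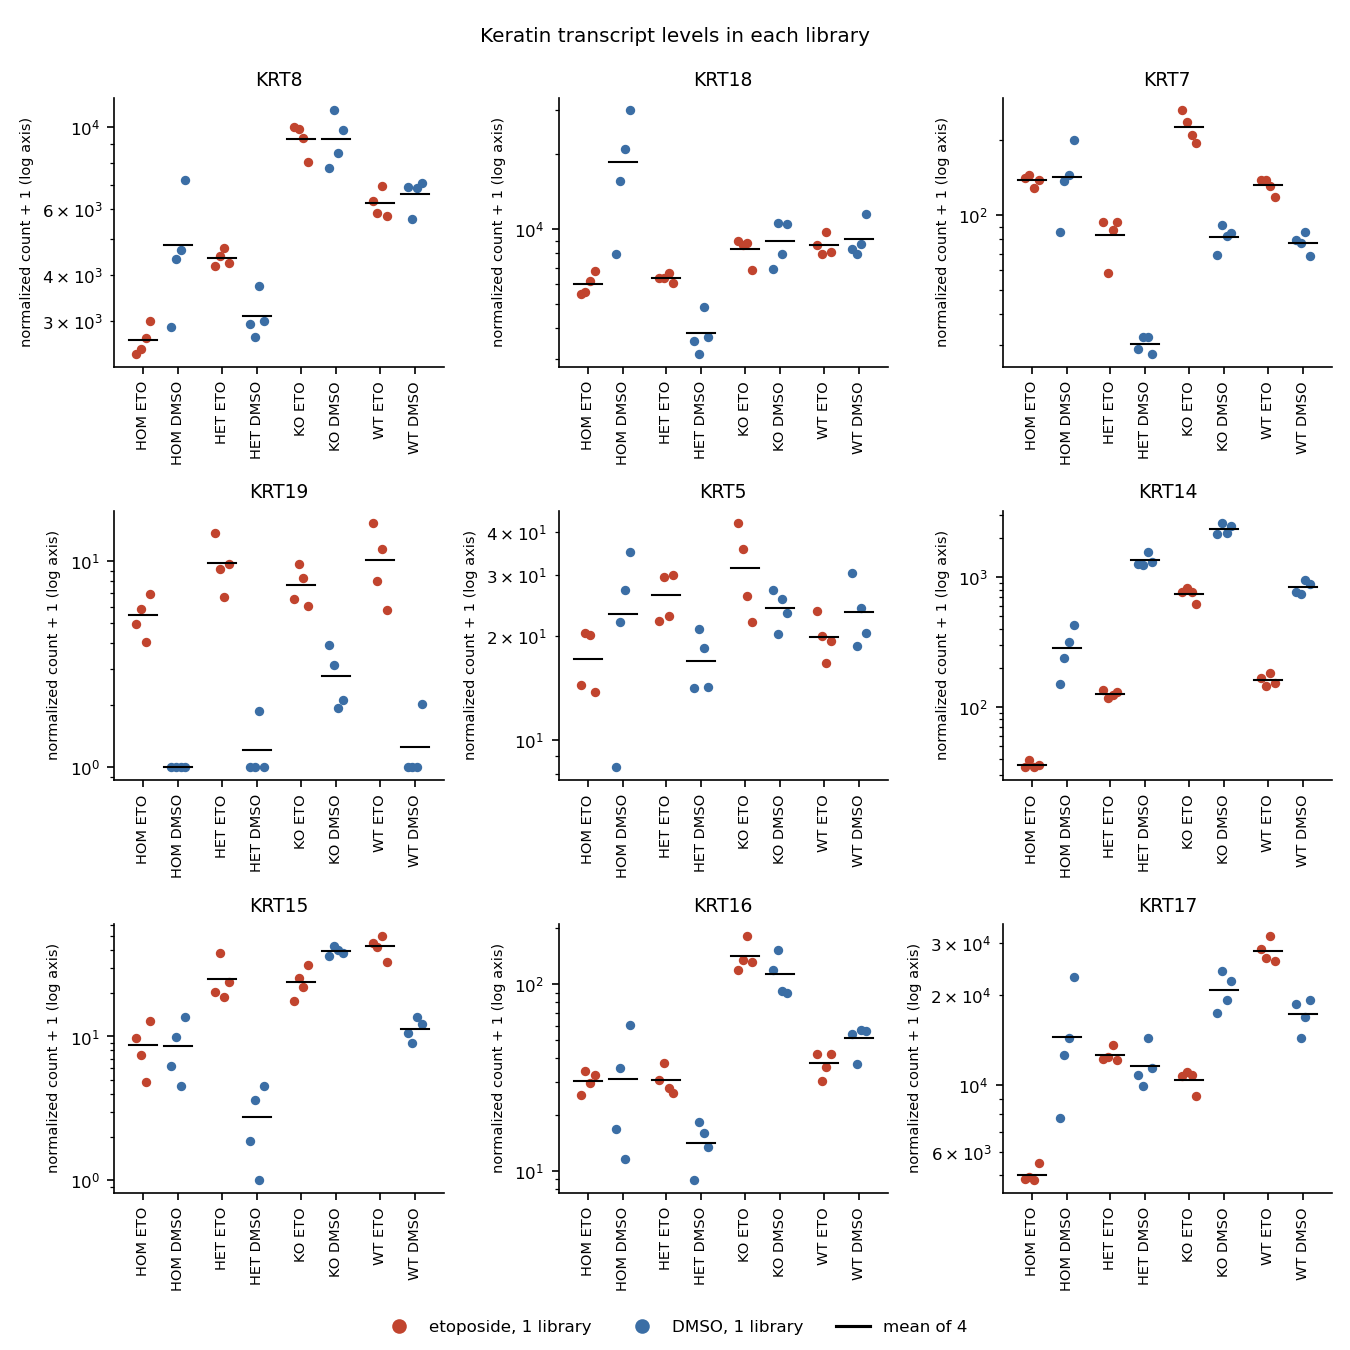
Normalized counts of the 9 keratins in each of the 32 libraries (1 point per library, line at the mean, 1 added for the log axis, 1 panel per gene), with the 8 groups along the horizontal axis and etoposide left of DMSO within each genotype. KRT17 lies between 4813 and 31546 over all libraries, and KRT14 lies lower with etoposide than with DMSO in every genotype.

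KRT19 stayed below the abundance filter of 10 normalized counts in 4 libraries. The other 8 genes were tested with limma in a fit over 16824 genes, and a change was counted as passing where it reached 1.5-fold and its Benjamini-Hochberg adjusted p was below 0.05. With etoposide, 4 of the 8 passed in HOM cells (0 higher, 4 lower), beside 65.6% of all tested genes (37.2% higher, 28.5% lower). Without DMSO libraries 2 to 4 the HOM split was 3 higher (KRT5, KRT7 and KRT16) and 2 lower (KRT14 and KRT17), beside 20.9% of all tested genes higher and 17.3% lower. It was 4 higher and 1 lower under total-count scaling, where 63.0% of all tested genes were higher and 6.0% lower. Under quantile normalization it was 0 higher and 3 lower, beside 27.6% and 27.9% of all tested genes. KRT14 was the only member lower in all 4 of these fits, and the direction of the HOM response as a whole thus depends on those libraries and their scaling. In HET cells 5 passed (4 higher, 1 lower), beside 30.2% of all tested genes (17.5% higher, 12.7% lower). In KO cells 3 passed (1 higher, 2 lower), beside 32.6% (18.1% higher, 14.5% lower). Under total-count scaling 2 were higher and 2 lower in KO cells, beside 28.6% and 7.07% of all tested genes. In WT cells 4 passed (3 higher, 1 lower), beside 35.0% (20.1% higher, 14.9% lower). The HOM count of 4 is below that share and the KO count near it.

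Between genotypes the count stood farthest from the background in etoposide, where 7 of the 8 were lower in HOM than in KO cells, beside 12.1% of all tested genes passing in either direction and 4.67% lower. In the same treatment 4 passed for HOM against WT (28.6% of all genes), 2 for HET against WT (23.3%) and 4 for KO against WT (26.7%). In DMSO, 7 passed for HOM against KO (51.2%), 4 for HOM against WT (47.6%), 6 for HET against WT (32.5%) and 3 for KO against WT (8.35%). The etoposide response itself differed for 5 of the 8 between HOM and WT (50.2%), for 4 between HOM and KO (43.7%), for 2 between HET and WT (4.75%) and for 4 between KO and WT (15.2%). Without HOM DMSO libraries 2 to 4 the counts above for HOM in DMSO and for the HOM responses change. Only library 1 then stands for HOM cells in DMSO, so members are not counted there for these comparisons. In DMSO, KRT5 (-1.47), KRT8 (-1.19), KRT14, KRT16 (-1.59) and KRT17 were then lower in HOM than in WT cells (log2 differences). Each set of HOM, HET and KO comparisons against WT shares the WT libraries.

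KRT8 is the type II chain of simple epithelia. It had 2434, 2522, 2696 and 2997 normalized counts in HOM cells with etoposide, against 2892, 4414, 4647 and 7212 with DMSO. The groups overlapped, and DMSO library 1 was the low one. In HET cells it had 4221, 4476, 4711 and 4308 with etoposide, against 2940.1, 2708, 3717 and 2988 with DMSO. These groups did not overlap, but the log2 change of 0.53 did not reach 1.5-fold. The HET change passed under total-count scaling (0.72), under quantile normalization (0.77) and without HET DMSO library 3 (0.62). KRT8 ranged over 8028 to 9988 with etoposide and 7754 to 11113 with DMSO in KO cells, and over 5761 to 6922 and 5642 to 7057 in WT cells. Both pairs overlapped and did not pass.

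In HOM cells the KRT8 response was a log2 change of -0.78 ± 0.16 (SE, limma adjusted p = 1.08e-04), but the sign flipped to 0.24 under total-count scaling and 0.10 under quantile normalization. Without DMSO libraries 2 to 4 the value was -0.12 and did not pass, and without library 4 alone it was -0.56 and did not pass. Genotypes differed as well. With etoposide every HOM library lay below every KO and every WT library, with log2 differences of -1.81 ± 0.16 from KO (adjusted p = 2.15e-09, limma) and -1.23 ± 0.16 from WT (adjusted p = 4.51e-07, limma). In DMSO, HET cells were lower than WT cells by a log2 difference of -1.10 ± 0.16 (adjusted p = 3.56e-06, limma), with no overlap. KO cells lay above WT cells without overlap in both treatments, but the differences of 0.49 in DMSO and 0.58 with etoposide did not reach 1.5-fold. The etoposide difference passed under total-count scaling (0.66) and quantile normalization (0.62). It also passed without KO library 4 (0.65), WT library 1 (0.59) or WT library 3 (0.63).

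KRT18 is the type I partner of KRT8. It had 5492, 5609, 6196 and 6779.7 normalized counts in HOM cells with etoposide, against 7945, 15661, 20957 and 30025 with DMSO. All etoposide libraries were lower, and the DMSO libraries were widely spread. HET cells had 6337, 6354, 6668 and 6052 with etoposide, against 3563, 3143, 4875 and 3675 with DMSO, again without overlap but in the other direction. KO cells ranged over 6877 to 8991 with etoposide and 6901 to 10582 with DMSO, and WT cells over 7953 to 9769 and 7971 to 11526. Both pairs overlapped and neither passed.

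KRT18 rose with etoposide in HET cells by a log2 change of 0.75 ± 0.23 (adjusted p = 8.77e-03, limma). It fell in HOM cells, with a change of -1.48 ± 0.23 (adjusted p = 1.79e-06, limma), or -0.41 without DMSO libraries 2 to 4, which did not pass. Under total-count scaling and quantile normalization the HOM change was -0.47 and -0.35, and neither passed. In DMSO, HET cells held less KRT18 than WT cells (log2 difference -1.26 ± 0.23, adjusted p = 6.59e-05, limma), with no overlap. HOM cells held more than WT cells in DMSO (0.89 ± 0.23, adjusted p = 1.60e-03, limma), but library 1 alone gave -0.18.

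**Figure D2:**
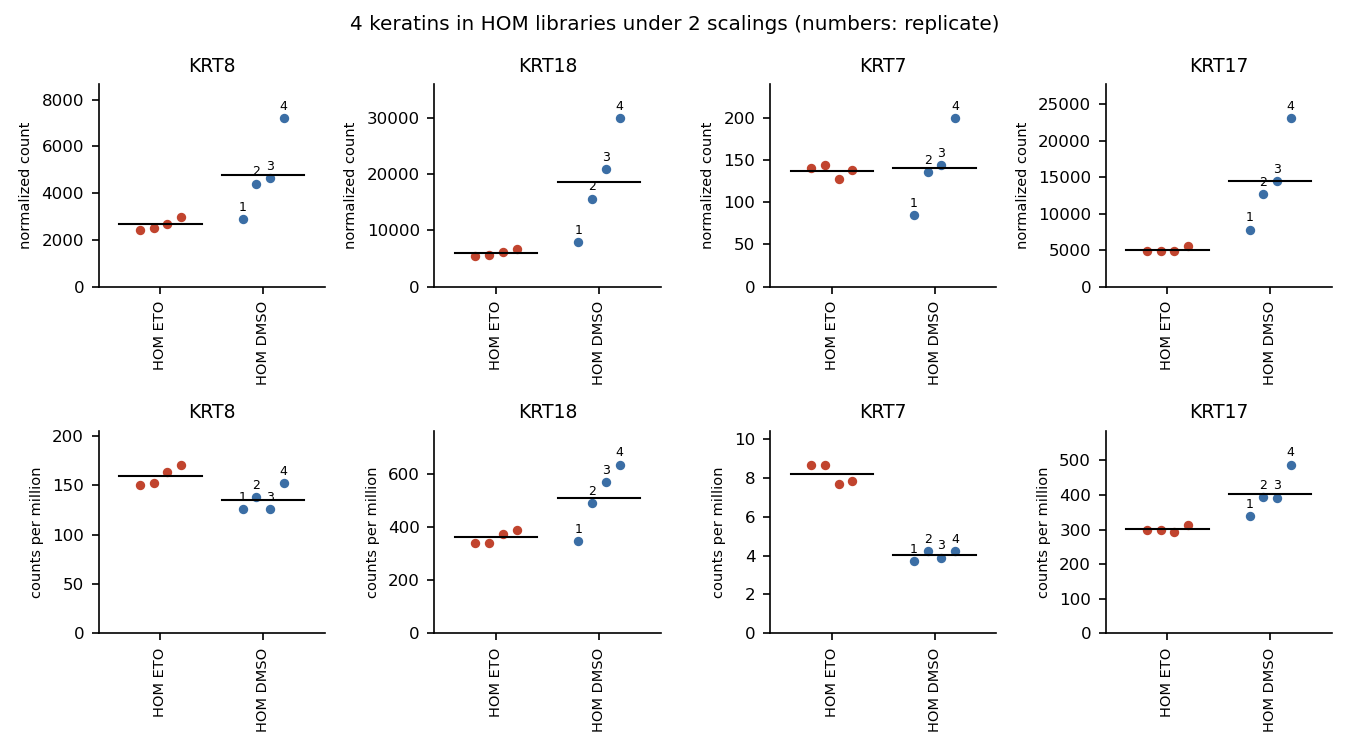
Levels of KRT8, KRT18, KRT7 and KRT17 in the HOM libraries, as normalized counts and as counts scaled to an equal library total (CPM). Etoposide is left of DMSO, with 1 point per library, lines at the means and replicate numbers at the DMSO points. On the normalized scale KRT8 in DMSO libraries 2 to 4 lies above library 1, while as CPM its 4 values lie between 126 and 153.

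Scaled to an equal total per library (CPM), KRT8 had 126, 138, 126 and 153 CPM in the HOM libraries with DMSO and averaged 159 with etoposide. KRT18 on the same scale had 346, 489, 569 and 635 with DMSO and averaged 360.4 with etoposide. KRT17 averaged 301.0 with etoposide, against 339, 394, 392 and 488 with DMSO. The spread of KRT8 and KRT17 among the HOM libraries with DMSO was thus smaller as CPM than after the authors' scaling. The part of the scaling and of the mitochondrial share in these falls was not tested.

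The 2 partners were not held at 1 ratio. KRT18 over KRT8, both per kb, was 3.10 ± 0.04 in HOM cells with etoposide and 5.13 ± 1.06 with DMSO (SD, n = 4 each). The ratio was 1.97 ± 0.06 and 1.68 ± 0.09 in HET cells, 1.22 ± 0.05 and 1.31 ± 0.10 in KO cells, and 1.90 ± 0.04 and 1.89 ± 0.26 in WT cells. All 4 HOM libraries with etoposide, at 3.05 to 3.15, lay above every HET, KO and WT library with etoposide. A ratio within a library does not depend on how that library was scaled.

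KRT7 is a type II chain of glandular and ductal epithelia and rose with etoposide in HET, KO and WT cells. It had 93.1, 57.4, 86 and 93 normalized counts in HET cells with etoposide, against 28, 31.2, 31.5 and 26.6 with DMSO. It had 264, 235, 210.3 and 194 in KO cells with etoposide, against 68.1, 90, 81.7 and 83.5 with DMSO. WT cells had 138, 138, 131 and 118 with etoposide, against 78.2, 76.1, 85.0 and 67.4 with DMSO. In these 3 genotypes every etoposide library was above every DMSO library. The log2 change was 1.44 ± 0.18 in HET cells (adjusted p = 1.01e-07, limma), 1.47 ± 0.18 in KO cells (8.68e-08) and 0.77 ± 0.18 in WT cells (6.84e-04). The WT change was 0.58 under quantile normalization and 0.57 on the deposited variance-stabilized scale, and neither reached 1.5-fold. The KO change exceeded the WT change by 0.70 ± 0.25 (adjusted p = 0.0482, limma), but of the 16 libraries in it 13 removed the call when left out singly (0.62 to 0.73). Only leaving out KO DMSO library 2, KO etoposide library 4 or WT DMSO library 4 kept it.

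HOM cells had 140.1, 144, 127 and 138 normalized counts of KRT7 with etoposide, against 84.9, 136, 144 and 199.6 with DMSO. The groups overlapped and did not pass, but DMSO library 1 was below all etoposide libraries, and without the other 3 the log2 change was 0.68 and passed. As CPM, KRT7 had 8.67, 8.70, 7.71 and 7.86 in HOM cells with etoposide, against 3.70, 4.25, 3.90 and 4.22 with DMSO. On that scale the groups did not overlap, and under total-count scaling the change of 1.03 passed (adjusted p = 1.21e-07, limma). Among etoposide libraries KRT7 was lower in HOM than in KO cells (-0.71 ± 0.18, adjusted p = 4.00e-03, limma) and lower in HET than in WT cells (-0.68 ± 0.18, adjusted p = 3.22e-03, limma). Neither pair of groups overlapped, but without the shallow HET library 2 the HET difference was -0.52 and did not pass. With DMSO, HET cells held less than WT cells (-1.36 ± 0.18, adjusted p = 4.14e-07, limma), also with no overlap.

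KRT19, the small type I chain of simple and ductal epithelia, was near the limit of detection. Over the 4 libraries of a group the recovered counts were 22 in HOM cells with etoposide and 0 with DMSO, 37 and 1 in HET cells, 31 and 7 in KO cells, and 41 and 1 in WT cells. Each of the 16 etoposide libraries held 4 to 17 counts, and each of the 16 DMSO libraries held 0 to 3. A count of 0 allows up to 3 counts in a library, so no fold is given. Fitted without the abundance filter over 30613 genes, KRT19 passed as higher with etoposide in HOM (limma adjusted p = 2.89e-07), HET (1.46e-08), KO (0.000708) and WT cells (1.52e-08).

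KRT14 is the type I chain of basal keratinocytes. It fell with etoposide in all 4 genotypes, and its level also differed widely between genotypes. It had 33.2, 38.1, 33.8 and 34.9 normalized counts in HOM cells with etoposide, against 149, 239, 314 and 425 with DMSO. HET cells had 133, 117, 122 and 128 with etoposide, against 1257, 1243, 1565 and 1313 with DMSO. No etoposide library of either genotype reached the lowest DMSO library. KO cells had 767, 829, 763 and 618 with etoposide, against 2137, 2596, 2175 and 2449 with DMSO. WT cells had 165, 144, 181 and 150.4 with etoposide, against 768, 739.7, 941 and 889.6 with DMSO. Again no groups overlapped.

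The log2 change of KRT14 was -2.87 ± 0.18 in HOM cells (adjusted p = 8.75e-14, limma), -3.41 ± 0.18 in HET cells (2.52e-15), -1.65 ± 0.18 in KO cells (1.45e-08) and -2.38 ± 0.18 in WT cells (6.86e-12). Without DMSO libraries 2 to 4 the HOM change was -2.06 and still passed. The HET fall exceeded the WT fall by 1.04 on the log2 scale (difference -1.04 ± 0.25, adjusted p = 0.0105, limma). The KO fall was smaller than the WT fall (difference 0.72 ± 0.25, adjusted p = 0.0470, limma), but of the 16 libraries in it 11 removed the call when left out singly (0.66 to 0.74). The call was kept without KO DMSO library 2, KO etoposide library 4, WT DMSO library 1 or 2, or WT etoposide library 3.

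Ordered by mean, KRT14 was lowest in HOM cells with etoposide (35.0 ± 2.20 normalized counts, SD, n = 4), followed by HET (125 ± 7.10) and WT cells with etoposide (159.9 ± 16.7). HOM cells with DMSO came next at 282 ± 117, and their range overlapped that of WT cells with etoposide. KO cells with etoposide had 744 ± 89.5 and overlapped WT cells with DMSO at 835 ± 96.4. HET cells with DMSO had 1345 ± 150.2, and KO cells with DMSO were highest at 2339 ± 220.2. With etoposide the log2 difference was -4.37 ± 0.18 between HOM and KO cells (adjusted p = 6.50e-17, limma), -2.16 ± 0.18 between HOM and WT cells (5.88e-11) and 2.21 ± 0.18 between KO and WT cells (4.09e-11). In DMSO, KO cells exceeded WT cells by 1.49 ± 0.18 (4.47e-07, limma) and HOM cells were below WT cells by a difference of -1.66 ± 0.18 (6.86e-08), or -2.47 with library 1 alone.

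KRT5, the type II partner of KRT14 in basal keratinocytes, was less abundant than KRT14 per kb in each group on the longest transcript. KRT14 was 3.29 times KRT5 in HOM cells with etoposide, the smallest ratio, and 154 times KRT5 in KO cells with DMSO, the largest. With the median protein-coding length KRT14 was 0.778 times KRT5 in HOM cells with etoposide, so the order there turns with the length, while it held in the other 7 groups. It had 12.8 to 19.5 normalized counts in HOM cells with etoposide and 7.34 to 34.0 with DMSO, 21.2 to 29.2 and 13.1 to 20.0 in HET cells, 21.0 to 41.5 and 19.3 to 26.3 in KO cells, and 15.7 to 22.7 and 17.7 to 29.6 in WT cells. Only the HET ranges did not overlap, and no etoposide response of KRT5 passed in the fit over all libraries with the authors' scaling. The HET response passed under total-count scaling (0.82), with array weights (0.81) and with the compared groups only (0.64). Under total-count scaling the KO response passed as well (0.65), and the HOM response passed as higher. Under quantile normalization the HOM response passed as lower (-0.98). With etoposide it was lower in HOM than in KO cells (log2 difference -0.85 ± 0.30, adjusted p = 0.0394, limma), and those groups did not overlap. The call was lost without HOM etoposide library 1 or 4 or KO etoposide library 1 or 2 (-0.78 to -0.69). With HOM library 1 as the sole DMSO library, KRT5 passed as higher with etoposide in HOM cells, at 1.02.

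KRT15, a further type I chain of the basal layer, moved in opposite directions to KRT14 in HET and WT cells. HET cells had 19.5, 36.9, 17.9 and 22.9 normalized counts with etoposide, against 0.875, 2.60, 0 and 3.54 with DMSO. WT cells had 43.7, 41.1, 48.8 and 31.8 with etoposide, against 9.53, 7.96, 12.6 and 11.2 with DMSO. In both genotypes all etoposide libraries were above all DMSO libraries. The log2 change was 3.37 ± 0.37 in HET cells (adjusted p = 1.63e-08, limma) and 1.90 ± 0.37 in WT cells (1.12e-04). The HET value depends on the added count of 1, since the 4 DMSO libraries held 0 to 4 recovered counts each, and it was 1.11 on the deposited variance-stabilized scale.

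KO cells held 16.6, 24.3, 21.1 and 30.3 normalized counts of KRT15 with etoposide, against 35.0, 41.8, 39.0 and 36.8 with DMSO. Each etoposide library was lower, but the log2 change of -0.73 ± 0.37 did not pass (adjusted p = 0.11, limma). This change passed with a pseudocount of 5 (-0.64), voom weights (-0.74), array weights (-0.72), the compared groups only (-0.73) and quantile normalization (-0.93). The KO response lay below the WT response by a log2 difference of -2.63 ± 0.53 (adjusted p = 5.10e-04, limma). HOM cells had 3.84 to 11.9 with etoposide and 3.5 to 12.7 with DMSO, which overlapped and did not pass. The HOM response passed as higher under total-count scaling (0.92) and as lower under quantile normalization, so its direction depends on the scaling. In DMSO, KO cells held more KRT15 than WT cells (1.80 ± 0.37, adjusted p = 9.67e-04, limma), without overlap.

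**Figure D3:**
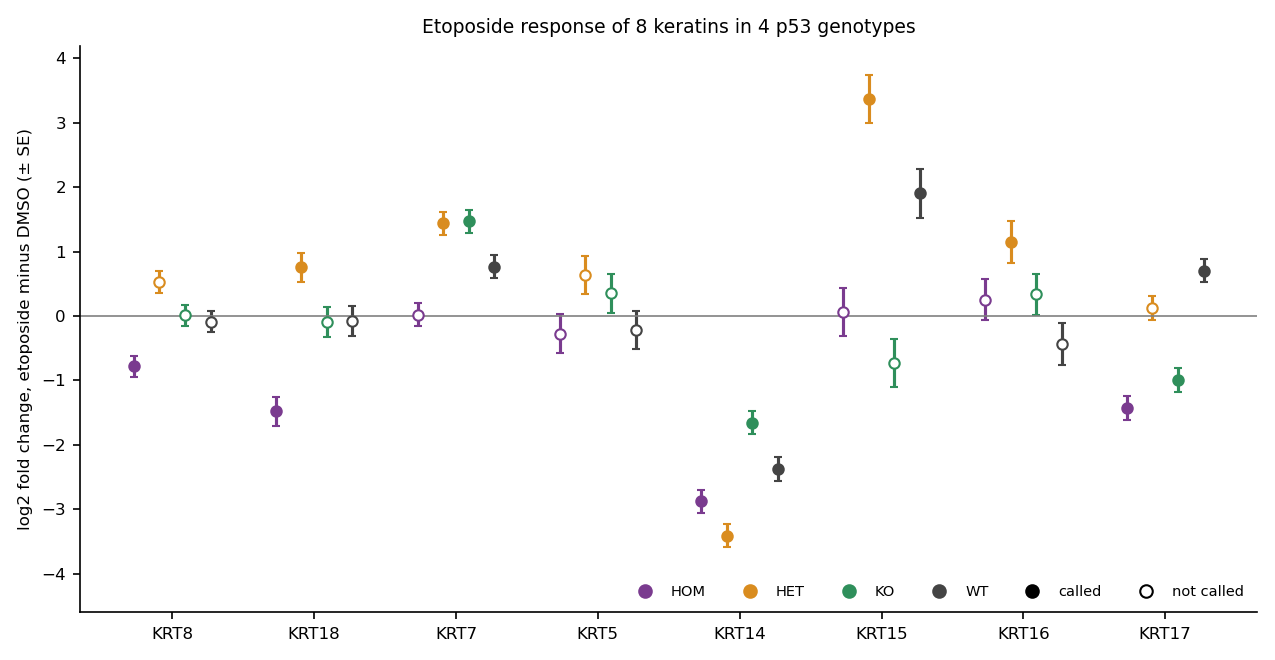
Log2 change with etoposide against DMSO of the 8 tested keratins in the 4 genotypes, with bars for the standard error of the limma fit and filled points for changes that passed. KRT14 lies below 0 in each genotype, and KRT17 lies below 0 in HOM and KO cells and above 0 in WT cells.

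KRT17, a type I chain induced in wounded skin, had the highest mean of all keratins over the 32 libraries and changed in opposite directions in KO and WT cells. By group mean of normalized counts it was not first everywhere: KRT81 exceeded it in HOM, HET and KO cells with etoposide. KRT18 exceeded it in HOM cells with etoposide and with DMSO. The same held per kb of the longest transcript, but with the median protein-coding length KRT17 was first in each group. KO cells had 10753, 11063, 10798 and 9226 normalized counts with etoposide, against 17499, 24222, 19266 and 22405 with DMSO. WT cells had 28478, 26645, 31546 and 26059 with etoposide, against 18682, 14396, 16959 and 19281 with DMSO. Etoposide libraries were all lower in KO cells and all higher in WT cells. HOM cells had 4848, 4937, 4813 and 5494 with etoposide, against 7780.4, 12612, 14446 and 23069.8 with DMSO, with all etoposide libraries lower. HET cells had 12216, 12479, 13647 and 12201 with etoposide, against 10826, 9944, 14384 and 11432 with DMSO, which overlapped and did not pass.

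KRT17 fell with etoposide in KO cells, with a log2 change of -0.99 ± 0.18 (adjusted p = 7.35e-05, limma), and rose in WT cells by 0.71 ± 0.18 (2.26e-03). The KO response differed from the WT response by -1.69 ± 0.26 (adjusted p = 1.67e-05, limma). In HOM cells the change was -1.42 ± 0.18 (9.77e-08, limma), or -0.63 with DMSO library 1 alone, which passed. It was -0.41 under total-count scaling and -0.32 under quantile normalization, and neither passed. In KO cells the change was -0.57 under quantile normalization, which did not pass.

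With etoposide the order of KRT17, from the lowest, was HOM (5023 ± 318 normalized counts, SD, n = 4), KO (10460.2 ± 834), HET (12635 ± 686) and WT (28182 ± 2468), and no neighbours overlapped. The log2 difference from WT cells was -2.49 ± 0.18 in HOM cells (adjusted p = 5.21e-12, limma), -1.16 ± 0.18 in HET cells (1.50e-05) and -1.43 ± 0.18 in KO cells (2.71e-07). HOM cells were also lower than KO cells, by -1.06 ± 0.18 (8.80e-05, limma). With DMSO, HOM cells had 14477 ± 6381, HET cells 11647 ± 1924, KO cells 20848 ± 3029 and WT cells 17330 ± 2189. HOM overlapped all 3 others and KO overlapped WT, while HET and WT did not overlap. Neither HET nor KO passed against WT. The HET difference of -0.58 (adjusted p = 0.0120, limma) was just short of 1.5-fold. It passed with array weights (-0.67) and without HET library 3 (-0.68), WT library 2 (-0.66) or WT library 3 (-0.59). HOM library 1 alone lay below WT cells by a log2 difference of -1.15, which passed.

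KRT16, the other wound-induced type I chain, was highest in KO cells. KO cells had 118, 134, 180.2 and 131 normalized counts with etoposide and 119, 151, 91.2 and 89.1 with DMSO. WT cells had 41.2, 29.1, 34.8 and 41.4 with etoposide and 53.4, 36.3, 56.0 and 55.2 with DMSO. Every KO library was above every WT library. The log2 difference between KO and WT cells was 1.91 ± 0.32 with etoposide (adjusted p = 1.89e-05, limma) and 1.14 ± 0.32 with DMSO (0.0167). The DMSO difference did not pass without KO library 2 (0.98) or WT library 2 (0.99). HET cells had 29.6, 36.9, 26.8 and 25.2 with etoposide, against 7.87, 17.4, 14.9 and 12.4 with DMSO, which did not overlap, and the change of 1.15 ± 0.32 passed (adjusted p = 4.43e-03, limma). It did not pass under quantile normalization (0.74, adjusted p = 0.102, limma) or on the deposited variance-stabilized scale, where the value of 0.52 was below 1.5-fold. HOM cells had 24.5 to 33.3 with etoposide and 10.5 to 59.5 with DMSO, which overlapped, but with DMSO library 1 alone the change was 0.85 and passed, and with etoposide they were below KO cells by -2.21 ± 0.32 (7.51e-06, limma). KRT14 was also higher in KO than in WT cells, and the part of shared reads in the KRT16 difference was not tested.

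The mixture of chains changed as well. KRT17 made up 41.1% of the signal of the 9 genes per kb in HOM cells with etoposide and 42.6% with DMSO, 59.2% and 62.9% in HET cells, 41.9% and 55.6% in KO cells, and 70.2% and 56.5% in WT cells. KRT14 made up 0.317% with etoposide and 0.917% with DMSO in HOM cells, 0.648% and 8.06% in HET cells, 3.28% and 6.93% in KO cells, and 0.439% and 3.02% in WT cells. The summed type I over type II signal per kb was 5.59 ± 0.07 in HOM cells with etoposide and 9.36 ± 1.33 with DMSO (SD, n = 4). It was 6.26 ± 0.11 and 8.14 ± 0.23 in HET cells, 3.02 ± 0.09 and 5.19 ± 0.13 in KO cells, and 8.70 ± 0.09 and 6.07 ± 0.38 in WT cells. The ratio was lower with etoposide in HOM, HET and KO cells and higher in WT cells, with no overlap in any genotype, and HOM DMSO library 1 alone had 7.67. When all keratins were included the ratio was 0.874 and 1.83 in HOM cells with etoposide and with DMSO, 0.971 and 2.98 in HET cells, 0.684 and 1.58 in KO cells, and 1.78 and 2.0 in WT cells. The higher WT ratio thus held for the 9 members only. Over all keratins the WT mean was lower with etoposide, and the WT ranges overlapped (1.678 to 1.933 with etoposide, 1.776 to 2.235 with DMSO).

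**Figure D4:**
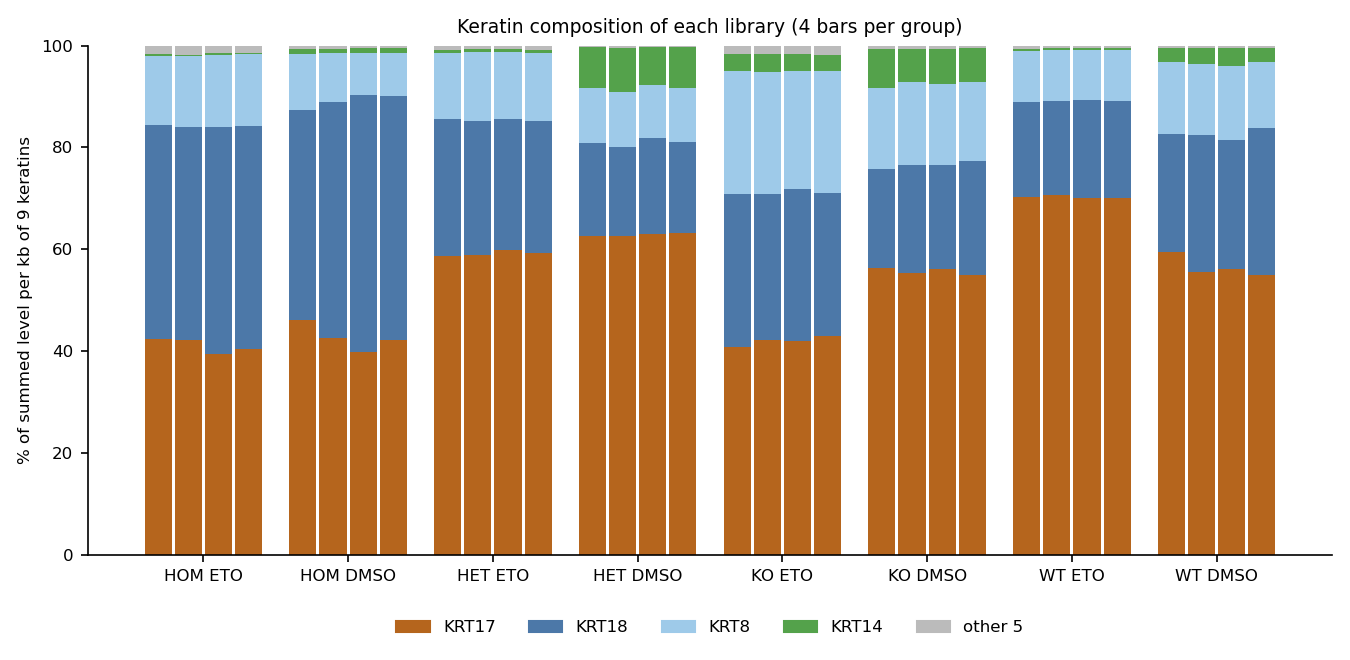
Shares of KRT17, KRT18, KRT8 and KRT14, and of the other members together, in the summed signal of the 9 keratins per kb of transcript. Each library has its own bar (percent, 4 libraries per group), with etoposide left of DMSO within each genotype. By group mean KRT17 takes 41.9% in KO cells with etoposide, against 55.6% with DMSO, and 70.2% in WT cells with etoposide, against 56.5% with DMSO.

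The other keratin genes, 46 in the matrix, of which 14 were tested, passed as higher more often than as lower with etoposide, as all tested genes did. In HOM cells 6 were higher and 2 lower (7 and 2 without DMSO libraries 2 to 4), in HET cells 10 and 1, in KO cells 8 and 1, and in WT cells 7 and 2. Under total-count scaling they were 11 and 0 in HOM, 10 and 0 in KO and 8 and 1 in WT cells. Beside these stood 63.0% higher and 6.0% lower of all tested genes in HOM cells. The shares were 28.6% and 7.07% in KO cells and 26.1% and 8.83% in WT cells. In the fit over all libraries the HOM share is near that of all tested genes, and the shares of higher genes in the other genotypes are above it. Under quantile normalization 6 were higher and 2 lower in HOM cells, beside 27.6% and 27.9% of all tested genes. Where the HOM share stands beside all genes thus depends on the DMSO libraries and their scaling. The median log2 change of the 14 was 0.62, 2.03, 1.52 and 1.06 in those genotypes, beside 0.16, 0.01, 0.05 and 0.05 over all tested genes, and 1.15 beside 0.062 in HOM cells without the 3 libraries. KRT81 averaged 16060 ± 718 normalized counts in HET cells with etoposide and 2739 ± 439.9 with DMSO (SD, n = 4), a log2 change of 2.56 ± 0.17 (adjusted p = 3.16e-13, limma). In WT cells it averaged 14036 ± 350.3 and 4855 ± 808, a change of 1.55 ± 0.17 (9.43e-09). In HOM cells the KRT81 change of 0.37 did not reach 1.5-fold, but 0.99 without DMSO libraries 2 to 4 did. KRT81 shares 42.5% of its 31-base stretches with KRT86, which fell in HET and WT cells. KRT86 also passed as lower in HOM cells (-1.05, or -0.78 without the 3 libraries), but it averaged 2.32 CPM with etoposide and 2.49 CPM with DMSO there, and under total-count scaling its change was -0.059.

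KRT34, a type I hair keratin, had 80.3 to 112 normalized counts in HOM cells with etoposide and 0 to 14.9 with DMSO. It had 266 to 322 and 0 to 8.68 in HET cells, 282 to 447 and 34.1 to 75.0 in KO cells, and 543 to 658 and 0 to 21.9 in WT cells. No pair overlapped, and it passed in each genotype (limma adjusted p = 2.24e-07 in HOM, 1.86e-07 in HET, 2.74e-03 in KO and 3.23e-08 in WT cells), and in HOM cells also without DMSO libraries 2 to 4. KRT75, a type II chain of the hair follicle, was lower in HET than in WT cells in DMSO, at 103 ± 22.9 and 1993 ± 259 (log2 difference -4.28 ± 0.20, adjusted p = 2.23e-16, limma). KRT80 was lower with etoposide in HOM cells, with a change of -1.39 ± 0.18 (8.71e-08, limma), or -0.71 without DMSO libraries 2 to 4, and in WT cells, with -0.75 ± 0.18 (1.04e-03). Neither reached 1.5-fold under total-count scaling (-0.38 in HOM, -0.52 in WT cells) or quantile normalization (-0.31 and -0.47), and in HOM cells it averaged 259 CPM with etoposide and 337 CPM with DMSO.

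**Figure D5:**
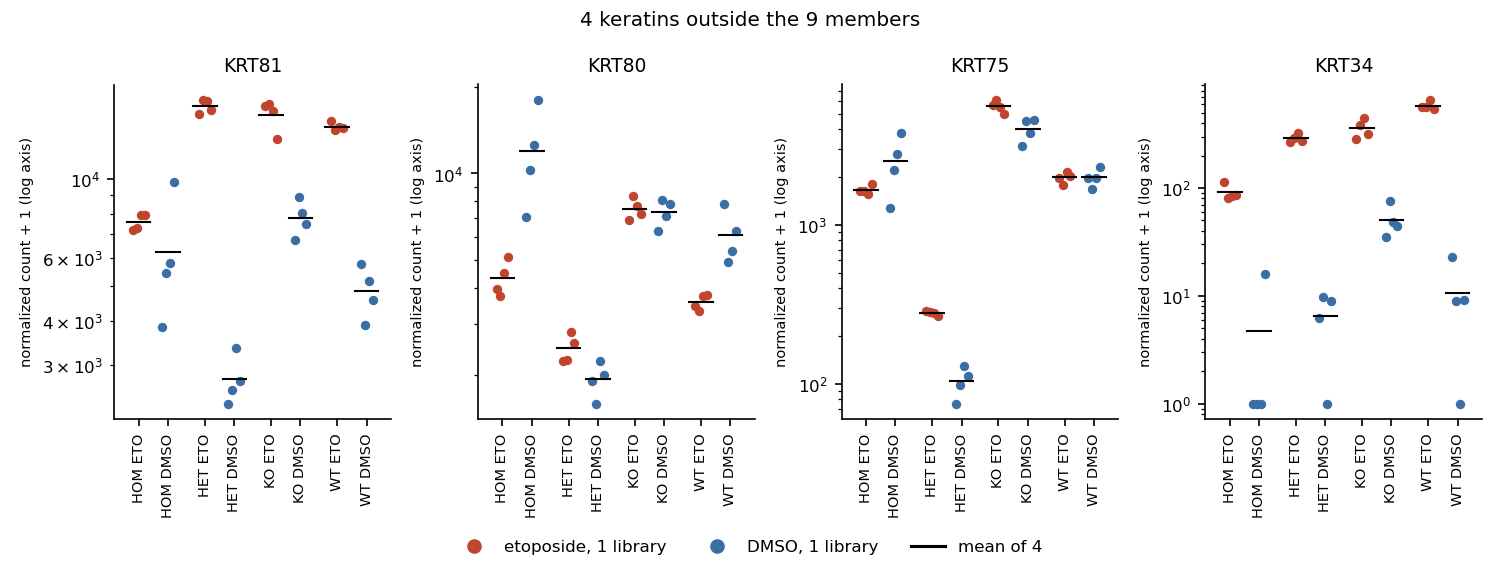
Normalized counts of KRT81, KRT80, KRT75 and KRT34, the abundant or strongly changed keratins outside the 9, in each library (1 point per library, logarithmic scale), with etoposide left of DMSO. KRT34 lies at 543 to 658 in WT cells with etoposide and at 0 to 21.9 with DMSO.

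Keratin filaments end in desmosomes and hemidesmosomes, and several of these anchoring genes rose with etoposide. The counts of higher and lower genes below stand beside 37.2% and 28.5% of all tested genes in HOM cells (20.9% and 17.3% without DMSO libraries 2 to 4), 17.5% and 12.7% in HET, 18.1% and 14.5% in KO, and 20.1% and 14.9% in WT cells. Of 15 tested desmosomal and linker genes, 9 were higher and 4 lower in HOM cells (7 and 2 without DMSO libraries 2 to 4), 9 and 1 in HET cells, 5 and 2 in KO cells, and 7 and 2 in WT cells. The median log2 change was 0.81 in HOM, 0.75 in HET, 0.31 in KO and 0.55 in WT cells, and 0.39 in HOM cells without the 3 libraries. In the fit over all libraries the lower linkers in HOM cells are near the share of all genes. The higher ones are above it in each genotype in that fit. Under quantile normalization the HOM split was 5 and 4, beside 27.6% and 27.9% of all tested genes. Under total-count scaling it was 11 and 1, beside 63.0% and 6.0%. Both HOM counts of higher linkers are nearer the share of all genes there, so the HOM reading depends on the scaling. PPL (periplakin) averaged 108 ± 13.5 normalized counts in WT cells with etoposide and 5.99 ± 2.56 with DMSO (SD, n = 4). PLEC (plectin), which links filaments to hemidesmosomes, fell in HOM cells by a change of -2.61 ± 0.26 (9.80e-10, limma), or -1.69 without DMSO libraries 2 to 4, and in KO cells by -0.98 ± 0.26 (2.89e-03), which was -0.49 and did not pass under quantile normalization.

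Of 9 hemidesmosome and laminin-332 genes, 4 were higher and 3 lower in HOM cells (3 and 2 without DMSO libraries 2 to 4), 6 and 0 in HET cells, and 3 and 1 in both KO and WT cells. The median log2 change was -0.23 in HOM, 0.80 in HET, 0.11 in KO and 0.55 in WT cells. The HOM counts are near the share of all genes in both directions. COL17A1, the transmembrane collagen of hemidesmosomes, averaged 607 ± 10.7 normalized counts in HET cells with etoposide and 11.8 ± 1.71 with DMSO, a log2 change of 5.58 ± 0.19 (adjusted p = 9.03e-20, limma). In WT cells it averaged 984 ± 27.3 and 24.4 ± 4.21, a change of 5.29 ± 0.19 (2.40e-19). The change was 1.93 ± 0.19 in HOM cells (5.15e-10), or 1.67 without DMSO libraries 2 to 4, and 1.84 ± 0.19 in KO cells (3.50e-09). With etoposide COL17A1 was lower in KO than in WT cells by -3.45 ± 0.19 (6.21e-15, limma).

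Of 16 epithelial adhesion and identity genes, 9 were higher and 4 lower with etoposide in HOM cells, 9 and 1 in HET cells, 9 and 0 in KO cells, and 10 and 0 in WT cells. CLDN1, a tight junction claudin, rose by a log2 change of 3.47 ± 0.18 in HOM cells (adjusted p = 1.76e-15, limma; 2.58 without DMSO libraries 2 to 4), 1.96 ± 0.18 in HET cells (4.14e-10), 3.36 ± 0.18 in KO cells (7.94e-15) and 3.34 ± 0.18 in WT cells (4.02e-15). Of 13 epithelial transcription factors, 10, 7, 9 and 8 were higher and 0, 0, 1 and 1 lower in HOM, HET, KO and WT cells. GRHL3, a regulator of epidermal barrier genes, averaged 10.7 ± 3.81 normalized counts in KO cells with etoposide. In WT cells it averaged 376 ± 15.1 with etoposide and 3.85 ± 2.95 with DMSO (limma adjusted p = 8.88e-13). Of 6 tested mesenchymal transcription factors, 4, 2, 2 and 2 were higher and 0, 0, 0 and 1 lower. Of 6 tested genes of the cornified envelope, 3, 4, 3 and 3 were higher and 1, 0, 0 and 0 lower. Without DMSO libraries 2 to 4 the HOM counts of higher and lower genes in these 4 lists were 7 and 0, 7 and 0, 2 and 0, and 4 and 0. The shares of higher genes in the adhesion list and among the epithelial factors are above that of all tested genes in each genotype. In HOM cells 6 adhesion genes were higher under quantile normalization, beside 27.6% of all tested genes. Under total-count scaling 12 were higher, beside 63.0%. For the adhesion list in HOM cells the gap is thus smaller under both scalings. The lists of 6 genes are too short to be read against all tested genes. Higher values were not confined to epithelial lists. The 2 tested blood markers were higher with etoposide in HOM, HET, KO and WT cells. Of 4 tested neural markers 0, 4, 1 and 2 were higher in those cells and 1, 0, 0 and 1 lower. These lists are also too short to be read against all genes.

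The non-keratin intermediate filament genes showed no common direction with etoposide: of 13 tested, 2 were higher and 3 lower in HOM cells (1 and 3 without DMSO libraries 2 to 4), 4 and 3 in HET cells, 3 and 3 in KO cells, and 4 and 5 in WT cells. Under total-count scaling the split was 7 and 2 in HOM, 6 and 1 in HET and 3 and 1 in KO cells. Beside these stood 63.0% higher and 6.0% lower of all tested genes in HOM cells. The shares were 22.3% and 7.52% in HET cells and 28.6% and 7.07% in KO cells. The HOM count of 7 higher genes is thus below the share of all genes. LMNB1, a nuclear lamin, fell in WT cells by a log2 change of -2.66 ± 0.12 (adjusted p = 3.83e-17, limma), and VIM was lower in HOM cells by -1.75 ± 0.13 (1.82e-12), or -1.27 without DMSO libraries 2 to 4, and -0.16 under quantile normalization, which did not pass. In DMSO, HET cells stood lower than WT cells over 10 of the 13 and higher for 1, with a median log2 difference of -1.16, beside -0.0046 over all tested genes, of which 16.4% were lower. The count of 10 was 7 under total-count scaling and 6 under quantile normalization, with medians of -0.91 and -0.90. NES (nestin) averaged 253 ± 30.8 normalized counts in HET cells with DMSO and 3626 ± 347 in WT cells with DMSO (SD, n = 4). In the same comparison 5 of 15 linkers and 6 of 9 hemidesmosome genes were lower and 0 of either list higher. Under total-count scaling the linker count of 5 was 3 and the hemidesmosome count of 6 was 3. The counts of this comparison under other scalings stand without the share of all tested genes, so they are not read against it. PKP3 (plakophilin 3) averaged 8.11 ± 2.76 and 304.5 ± 44.7 normalized counts in HET and WT cells.

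The genes whose levels followed a keratin most closely over the 32 libraries were searched among 12682 genes outside the family with a mean of at least 50 normalized counts. On the log2 scale they were TAGLN2 for KRT18 (Pearson r 0.96), SLC43A3 for KRT7 (0.95), PMM2 for KRT17 (0.92), MISP for both KRT8 (0.92) and KRT16 (0.90), and MPZL1 for KRT14 (0.89). KRT8 followed KRT16 with r 0.84 and KRT18 with r 0.53, or 0.76 without HOM DMSO libraries 2 to 4. These values describe 32 points in 8 groups of shared genotype, treatment and scaling.

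For the 6 comparisons tabulated by the authors, 48 values of the tested keratins could be set beside the fit used here. Of them, 29 met the threshold in the authors' deposited table, 29 met it here, and 28 met it in both with the same direction. The largest difference in log2 fold change between the authors' deposited table and the fit used here was 0.177.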

How the data were processed

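Poly-A libraries of 32 U2OS samples were made by BGI, per the labels' protocols. Reads were quantified with kallisto against GRCh38 (hg38) and normalized with DESeq2, per the submitters' processing notes, and neither version is given in the sources used here. Matrix values were deposited after variance stabilization, on a scale close to log2 whose floor was 4.43. Inverting them gave normalized counts whose mean matched the deposited mean signal per gene within a relative difference of 4.45e-14, and undoing the library scaling gave whole counts, within 0.01, in 100% of values. For 6 comparisons the authors also deposited the log2 fold change of each gene with its p-value, and a Wald score that was not used here.

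A gene was tested where 4 or more libraries held 10 or more normalized counts (16824 of 35587), with limma 3.58.1 in R 4.3.3. The test used a trend, log2 of the normalized count plus 1, all 32 libraries and 1 mean per group, so each SE rests on a spread pooled over the 8 groups. It was run on these values and not with a count model because the matrix was deposited in normalized form. Two-sided p-values were adjusted over all tested genes, separately for each of 16 comparisons (Benjamini-Hochberg). A fold change is on the log2(value + 1) scale and understates that of low genes. A level of 3 counts in a library corresponds to 2.30 to 6.37 normalized counts, which covers counting error only. No 2 replicates were duplicates: chi-square over degrees of freedom was 1.89 to 254.4.

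Lengths, positions and sequences came from GENCODE 29 on GRCh38. From each gene list up to 2 genes higher and 2 lower in a comparison were named, by size of change, with a mean of at least 50 in 1 group, and the genes most like a member were named by Pearson r. The level of the edited gene is not reported here. The members and lists were chosen with earlier results of these data known. Alternatives were a pseudocount of 5, no filter, a filter of 50, total-count and quantile scaling, the deposited scale, voom and array weights, a replicate block, fits on the compared groups only, each library left out, and HOM DMSO libraries 2 to 4 left out.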

Additional observations from a re-analysis of the deposited data

Results flagged for a closer look

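Of 71 sets of 1 keratin in 1 group of 4 libraries, 5 held a library far from the other 3. Chance gives such a gap in about 1 in 20 sets, so 5 is near the number that chance gives. KRT8 had 5642 normalized counts in the lowest WT library with DMSO. KRT16 had 36.3 in the lowest WT library with DMSO, and KRT17 had 9226 in the lowest KO library with etoposide. KRT19 had 0.875 in 1 HET library and 1.02 in 1 WT library with DMSO, each a single read beside 3 libraries at 0.

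The etoposide response differed between genotypes for 15 pairs of keratin and comparison, given as the difference of the log2 changes. Between KO and WT cells it was 0.70 for KRT7, 0.72 for KRT14, -2.63 for KRT15 and -1.69 for KRT17. Between HET and WT cells it was -1.04 for KRT14 and 1.59 for KRT16, and of 16 libraries left out singly 9 removed the KRT16 call (1.38 to 1.59). Between HOM and WT cells it was -0.74 for KRT7, -0.69 for KRT8, -1.85 for KRT15, -2.13 for KRT17 and -1.41 for KRT18. Between HOM and KO cells it was -1.45 for KRT7, -0.79 for KRT8, -1.22 for KRT14 and -1.39 for KRT18. Without HOM DMSO libraries 2 to 4, the HOM and WT responses differed for KRT17 (-1.34), KRT5 (1.24) and KRT16 (1.29), and no member differed between HOM and KO.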

How the results depend on the processing

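Of 68 differences that passed, 41 passed in the same direction in each alternative run. All 68 did so with a pseudocount of 5 and with voom weights, 67 with array weights, 64 without the filter, 61 with the compared groups only, 57 on the deposited scale, 55 under total-count scaling, 55 under quantile normalization and 10 of 24 without HOM DMSO libraries 2 to 4. Total-count scaling moved the median change of all genes by 1.01 for the HOM response and by -0.56 for HOM against WT and against KO in DMSO. Signs reversed for the KRT8 response in HOM cells (0.24 under total-count scaling, 0.10 under quantile normalization), the HOM minus WT response of KRT7 (0.036) and KRT8 (0.092) under total-count scaling, and KRT18 in DMSO without the 3 libraries (-0.18 against WT, -0.15 against KO). With the compared groups only, 1 member passed for HOM against WT in DMSO and 4 for HOM against KO. On the deposited scale 1 passed for HET against WT with etoposide. For the HET minus WT response the count was 1 without the filter, 5 under total-count scaling, 1 on the deposited scale, 6 with array weights and 4 with the compared groups only. Without the 3 libraries HOM cells in DMSO rest on library 1 alone, so counts for the DMSO comparisons and the response differences are not given. The member counts in this paragraph stand without the share of all tested genes in the same run, so they are not read against it. With the median protein-coding length, the type I over type II ratio was 4.98 in HOM cells with etoposide, 5.84 and 7.50 in HET, 2.73 and 4.76 in KO, and 8.35 and 5.62 in WT cells with etoposide and DMSO. The cause of these changes was not tested. Running the scalings, and the fit without the 3 libraries, on the gene lists and on genes outside the 9 was chosen after seeing the data.

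Leaving out each library in turn gave 4 to 5 passing members for the HOM response, 5 to 6 for HET, 3 to 3 for KO and 4 to 4 for WT. In DMSO it gave 6 to 7 for HOM against KO, 3 to 6 for HOM against WT, 6 to 7 for HET against WT and 2 to 3 for KO against WT. With etoposide it gave 6 to 7, 4 to 4, 1 to 2 and 4 to 5 for the same pairs. For the differences in response it gave 3 to 6, 4 to 6, 1 to 2 and 2 to 4. Replicate numbers were shared between groups. Deviations of same-numbered libraries correlated at -0.196 to 0.364 over 112 pairs of libraries in 28 pairs of groups, with 17 over 0.1. Differently numbered libraries were not compared, so these values cannot show whether same-numbered libraries share more than a number. With the replicate block, 66 of 68 remained, and the KRT7 response in KO minus WT (adjusted p = 0.0617) and KRT5 in HOM against KO with etoposide (0.0503) did not pass. KRT19 in DMSO, with 0 to 3 counts per library, and KRT15 in HET cells with DMSO, with 0 to 4, are limited by counting, and the fitted KRT15 change there is not a measured fold.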
